A study of Mus musculus with 14 samples.

Results

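The Pax family consists of 9 mouse genes, *Pax1* to *Pax9*, which encode transcription factors with a paired DNA-binding domain. Every H3K27me3 peak of the deposited table that overlapped the body of one of these genes, or the 5 kb on either side of it in the GENCODE M21 annotation of GRCm38 (mm10), was taken as a Pax peak. This rule gave 130 of the 23668 listed peaks, and each of the 9 genes had at least 1.

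H3K27me3 is histone H3 with 3 methyl groups on its lysine 27, and it had been profiled by ChIP-seq in wild-type (WT) mouse primary hippocampal neurons prepared from late CD1 embryos of litters of mixed sex. Control cultures received a negative control LNA gapmer (a short antisense oligomer) in lipid nanoparticles, and NeuID knockdown cultures received a gapmer against the long noncoding RNA NeuID by the same route. The labels give 6 control and 6 NeuID knockdown ChIP libraries made with one anti-H3K27me3 antibody, with 1 input library per group. These are embryonic neurons in culture, and nothing in the labels says which libraries came from separate preparations. Among cell type markers, the start of 3 of 12 neuronal marker genes lay in a peak (*Gad2*, *Nefl* and *Neurod2*). The counts were 2 of 6 for oligodendrocyte markers (*Olig1* and *Olig2*), 0 of 6 for astrocyte markers and 0 of 5 for microglial markers. The share of all gene starts in a peak was not counted, so these counts do not check the cell type. H3K27me3 lies mostly on silent genes, so a marker without a peak does not show that its cell type was present.

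H3K27me3 is written by Polycomb repressive complex 2 and is known to form broad domains over the start regions of developmental transcription factor genes in cells that do not use them. In mammals such domains are often found at stretches rich in CpG dinucleotides. Pax factors direct the formation of organs in the embryo and are grouped by the structure of their proteins into Pax1/9 (skeleton and pharyngeal pouches), Pax2/5/8 (kidney, B lymphocytes, thyroid and the midbrain-hindbrain border), Pax3/7 (neural crest and muscle) and Pax4/6 (pancreatic islets, eye and forebrain). Of these, *Pax6* is the member best known for its role in the progenitors of cortical and hippocampal neurons.

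The central 300 bases of 6 Pax peaks are given here because the results below turn on these loci. They were read from GRCm38.p6 in the direction of transcription of the gene, and each CG dinucleotide is in capitals. The first belongs to the wide peak over the start of *Pax9*, the gene with the highest control level per kb of peak (chr12:56688951-56689250, plus strand), and the second to the one peak of *Pax4*, which had the lowest control level per kb and the highest ratio of knockdown to control (chr6:28451518-28451817, minus strand).
Pax9 start peak: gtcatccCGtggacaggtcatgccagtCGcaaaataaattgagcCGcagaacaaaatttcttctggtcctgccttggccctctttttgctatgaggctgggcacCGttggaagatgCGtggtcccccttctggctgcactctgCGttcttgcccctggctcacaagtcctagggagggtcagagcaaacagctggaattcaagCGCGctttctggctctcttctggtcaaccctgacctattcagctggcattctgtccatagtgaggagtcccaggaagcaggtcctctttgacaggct
Pax4 upstream peak: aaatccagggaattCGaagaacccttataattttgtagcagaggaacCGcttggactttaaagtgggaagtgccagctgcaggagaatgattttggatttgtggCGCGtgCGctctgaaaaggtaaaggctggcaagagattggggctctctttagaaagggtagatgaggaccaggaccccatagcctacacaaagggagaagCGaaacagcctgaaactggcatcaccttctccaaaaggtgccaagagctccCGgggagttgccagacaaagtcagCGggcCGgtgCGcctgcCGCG
The next belong to the intronic peaks of *Pax8* (chr2:24471353-24471652, minus strand) and *Pax5* (chr4:44695136-44695435, minus strand) at which the control and knockdown means lay furthest apart in the downward direction.
Pax8 intronic peak: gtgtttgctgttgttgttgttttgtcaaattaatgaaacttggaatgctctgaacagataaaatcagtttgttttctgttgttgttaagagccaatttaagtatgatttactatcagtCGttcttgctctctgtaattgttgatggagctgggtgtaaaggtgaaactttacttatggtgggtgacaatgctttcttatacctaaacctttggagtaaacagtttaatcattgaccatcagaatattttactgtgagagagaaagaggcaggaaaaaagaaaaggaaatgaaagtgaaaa
Pax5 intronic peak: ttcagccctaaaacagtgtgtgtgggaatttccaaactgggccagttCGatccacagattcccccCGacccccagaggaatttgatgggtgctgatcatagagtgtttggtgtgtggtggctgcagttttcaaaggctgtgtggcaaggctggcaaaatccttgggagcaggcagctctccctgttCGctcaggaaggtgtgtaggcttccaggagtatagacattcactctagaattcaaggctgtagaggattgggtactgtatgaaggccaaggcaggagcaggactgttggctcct
The last are the peaks on either side of the *Pax6* start, one upstream (chr2:105668165-105668464, plus strand) and one in the first part of the gene (chr2:105669198-105669497, plus strand).
Pax6 upstream peak: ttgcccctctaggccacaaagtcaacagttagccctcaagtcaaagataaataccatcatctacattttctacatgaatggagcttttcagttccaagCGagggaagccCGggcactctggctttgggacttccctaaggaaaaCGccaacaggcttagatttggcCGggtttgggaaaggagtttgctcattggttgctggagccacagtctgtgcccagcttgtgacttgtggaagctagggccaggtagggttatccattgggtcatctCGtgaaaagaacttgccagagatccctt
Pax6 intronic peak: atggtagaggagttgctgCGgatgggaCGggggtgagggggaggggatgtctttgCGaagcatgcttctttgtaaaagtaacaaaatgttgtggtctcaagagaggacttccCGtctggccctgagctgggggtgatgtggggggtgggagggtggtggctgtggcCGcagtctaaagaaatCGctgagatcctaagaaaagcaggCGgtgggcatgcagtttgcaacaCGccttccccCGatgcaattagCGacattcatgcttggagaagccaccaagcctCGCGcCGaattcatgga
The *Pax9* window held 8 CG dinucleotides, the *Pax4* window 12, the *Pax8* window 1 and the *Pax5* window 3. The *Pax6* windows held 5 upstream of the start and 13 after it. A CG is palindromic and reads the same on both strands, and 94.6% of Pax peaks held at least 1 in their central 300 bases, against 92.6% of all listed peaks on chromosomes, with a median of 4 in each set.

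Values are the authors' group means on the log2 scale of normalized reads per library, so that a difference of 1 between the groups is a 2-fold difference. Reads quoted below are these means taken back to the linear scale, and a mean listed at 0 counts as 1 read in a sum. The table holds 1 mean per group and no value per library. No SD or n therefore accompanies a value, no difference between the groups was tested, and a peak was counted as lower or higher when the means differed by more than 2-fold.

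To describe H3K27me3 on the family as a whole, the peaks were first pooled. Of the 130 Pax peaks, 21 (16.2%) were lower by more than 2-fold in the knockdown and 14 (10.8%) were higher. Over all listed peaks these shares were 20.6% and 20.4%, and 41.1% in either direction. Both Pax shares lay below these, but the 2 sets are not matched for strength. Pax peaks were also stronger than most, and the counts are set against peaks of like strength further on. Because the ChIP was done on whole cultures, fewer cells carrying the mark and less mark per cell cannot be told apart in any of these values. The median difference was −0.09 over the Pax peaks and −0.02 over all peaks, and 74 of the 130 Pax peaks (56.9%) had a knockdown mean below the control mean, against 50.8% of all peaks. Summed over the Pax peaks, 3885 normalized reads in the control stood against 3462 in the knockdown, or 89.1% of the control, where the sum over all peaks was 97.1%. These sums are not matched for strength, and ratios of genes with at least 100 reads are given below.

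The amount of H3K27me3 differed widely between the 9 genes. In the control, the summed reads were 809 for *Pax3*, 706 for *Pax2*, 670 for *Pax5*, 602 for *Pax7* and 554 for *Pax9*. By these sums the genes stood at ranks 19, 26, 29, 42 and 49 among the 6154 protein-coding genes that had any listed peak when treated alike. *Pax1* followed with 294 reads (rank 171), *Pax8* with 190 (rank 258), *Pax6* with 48.5 (rank 1049) and *Pax4* with 12.2 (rank 2976). The 2 genes of the Pax4/6 group thus stood well below the other 7. Sums grow with the covered length, which ran from 713 bp at *Pax4* to 34178 bp at *Pax3*, and on the scale of reads per kb of peak the range was narrower. *Pax9* had the highest control level, 32.3 reads per kb, and *Pax4* and *Pax6* had the lowest, 17.1 and 18.0. The remaining 6 genes lay between 23.7 (*Pax3*) and 28.1 (*Pax7*), and with no value per library the order has no spread to be read against. Per kb the ranks among the 6154 genes were lower, at 208 for *Pax9*, 589 for *Pax7*, 638 for *Pax2* and 654 for *Pax5*. They were 847 for *Pax1*, 1190 for *Pax8*, 1472 for *Pax3*, 3282 for *Pax6* and 3580 for *Pax4*. In the knockdown the order was another, with *Pax1* highest (28.1), *Pax9* next (27.2) and *Pax6* lowest (17.0), while *Pax4* had 24.9. Peaks covered 52.2% of the *Pax9* window, 32.3% of that of *Pax3*, 12.4% of that of *Pax5*, 7.02% of that of *Pax6* and 4.19% of that of *Pax4*.

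**Figure D1:**
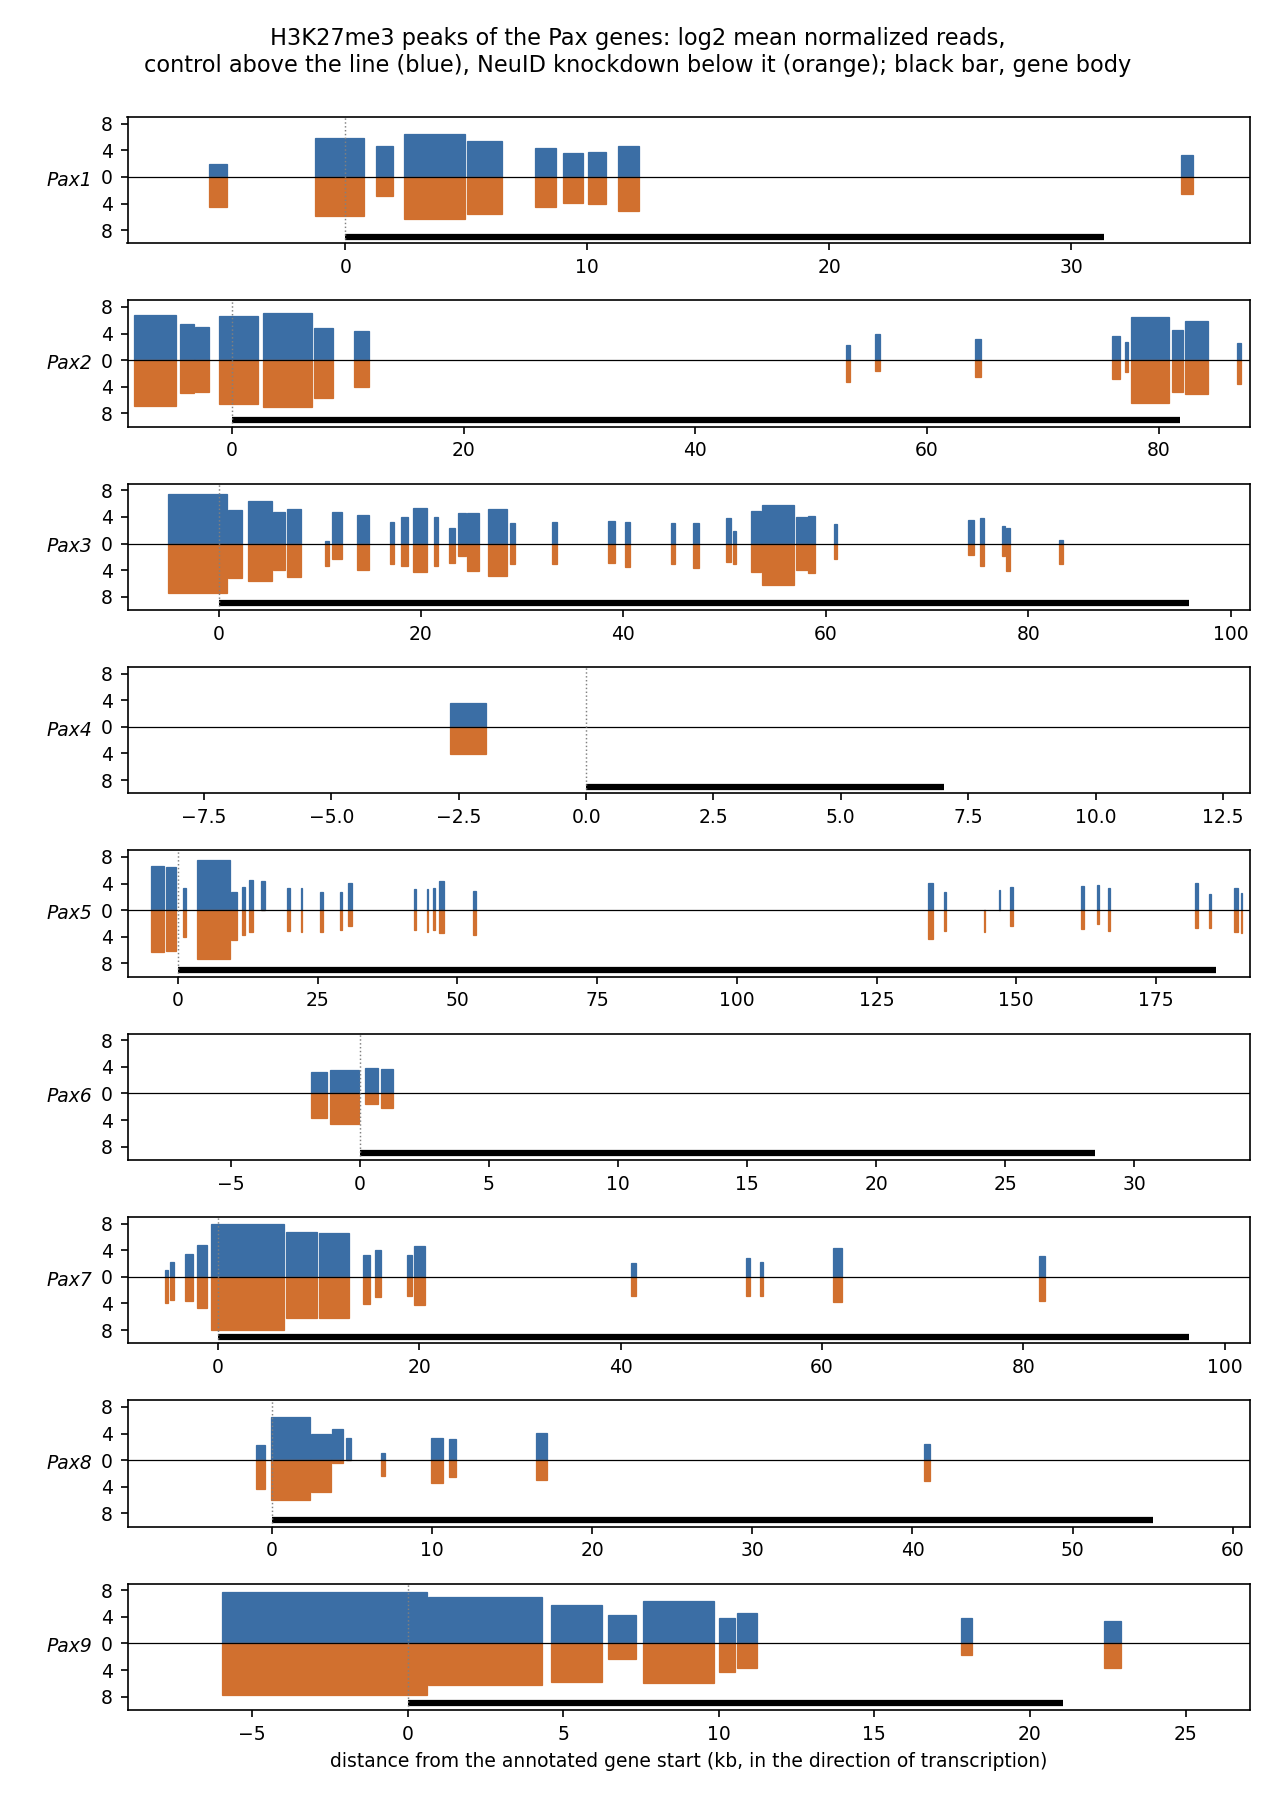
Map of the H3K27me3 peaks in the window of each Pax gene, with the distance from the annotated start in kb in the direction of transcription on the x axis and the log2 mean of normalized reads on the y axis, control upward in blue and NeuID knockdown downward in orange. Wide blocks of similar height in both groups surround the starts of *Pax1*, *Pax2*, *Pax3*, *Pax7*, *Pax8* and *Pax9*, whereas the *Pax6* start lies between low peaks and *Pax4* has 1 peak upstream.

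For 7 of the 9 genes the summed reads were lower in the knockdown. The log2 ratio of knockdown to control was −0.33 for *Pax8*, −0.26 for *Pax5*, −0.25 for *Pax9*, −0.23 for *Pax3*, −0.13 for *Pax7*, −0.09 for *Pax2* and −0.08 for *Pax6*. It was 0.08 for *Pax1* and 0.54 for *Pax4*, whose value rests on a single peak. In 0 of the 9 genes did the sums differ by more than 2-fold, while 13.8% of the 6154 protein-coding genes were lower and 17.6% higher by that limit. Of the 500 genes whose control and knockdown sums averaged at least 100 reads, 0 were past 2-fold, 65.4% had a ratio below 0, the median was −0.10 and the 5th to 95th percentile ran from −0.48 to 0.37. The 7 Pax genes in this class, of which 6 were below 0, all lay within that range. By subfamily the ratio was −0.12 for Pax1/9, −0.19 for Pax2/5/8, −0.18 for Pax3/7 and 0.07 for Pax4/6.

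**Figure D2:**
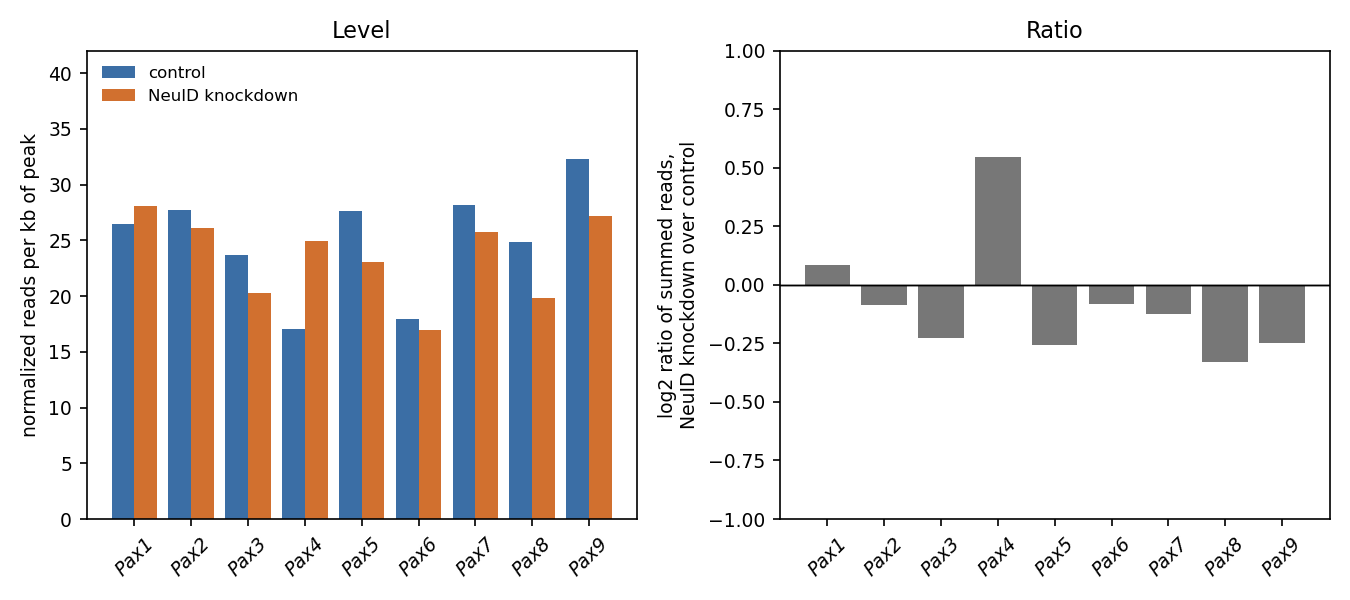
Left, normalized reads per kb of covered peak (y axis) for each Pax gene in the control (blue) and the NeuID knockdown (orange). Right, log2 ratio of the summed reads, knockdown over control, which lies between −0.33 (*Pax8*) and 0.54 (*Pax4*). Bars are the authors' group means summed over peaks, with no error bar because no value per library was used.

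The size of the difference followed the strength of the peak. Of the 27 Pax peaks with an overall mean of 5 or more, 0 differed by more than 2-fold, where 4.26% of all listed peaks of that strength did (3.01% lower and 1.25% higher), and their differences ran from −0.92 to 0.76. The median in this class was −0.10 for the Pax peaks and for all peaks alike. Of the 27 Pax peaks 19 were below 0, against 59.3% of all listed peaks of that strength. With an overall mean of 4 to 5, 4 of 24 Pax peaks were lower and 1 higher (13.3% and 7.62% of all peaks of that strength). From 3 to 4 the counts were 14 lower and 5 higher of 54 (21.1% and 16.2%), and under 3 they were 3 lower and 8 higher of 25 (23.4% and 26.9%, or 50.3% in either direction). As shares, the lower Pax peaks came to 16.7% against 13.3% from 4 to 5 and to 25.9% against 21.1% from 3 to 4. From 5 upward they came to 0% against 3.01%, and under 3 to 12.0% against 23.4%. The share of lower Pax peaks was thus not below the background in every class of strength. That of higher peaks was below it except under 3 (32.0% against 26.9%). These counts are small and were not tested against the background. Spearman's rho between the overall mean and the size of the difference was −0.38 across the 130 Pax peaks and −0.28 across all 23668, where the mean of both groups enters both measures.

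**Figure D3:**
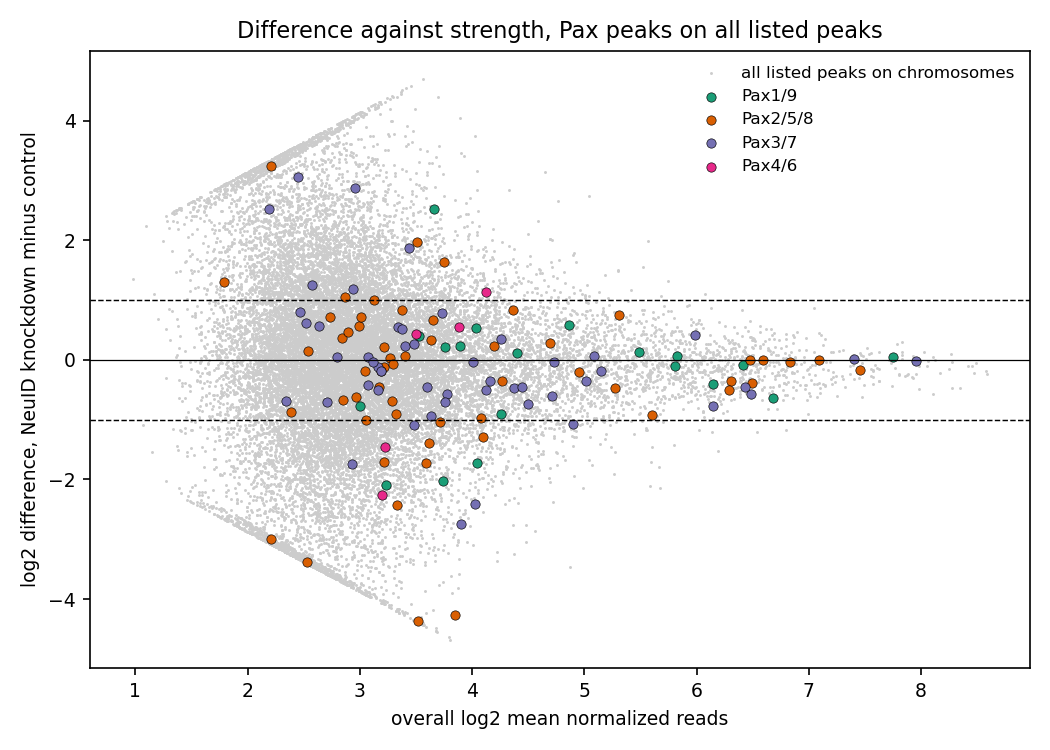
Difference between the groups (log2 mean in the NeuID knockdown minus control, y axis) against the overall log2 mean of normalized reads (x axis) for the Pax peaks, coloured by subfamily, over all listed peaks on chromosomes in grey, with dashed lines at 2-fold. The 27 Pax peaks with an overall mean of 5 or more all lie between the dashed lines, and the spread widens toward weak peaks.

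Pax peaks were stronger than the listed peaks in general, with a median overall mean of 3.64 against 2.93, and 20.8% of them reached 5 against 5.75%. They were also wider. Of the Pax peaks, 18 (13.8%) were 2 kb or longer, against 2.93% of all peaks. None of these 18 differed by more than 2-fold (0 of 18, with 3.32% of all peaks of that width), and their differences lay between −0.78 and 0.42. The 43 Pax peaks under 500 bp held 8 lower and 10 higher ones, where 22.2% and 24.9% of all peaks of that width were.

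The position of a peak within the gene went along with its strength. At 6 genes (*Pax1*, *Pax2*, *Pax3*, *Pax7*, *Pax8* and *Pax9*) a peak lay over the annotated start, and these start peaks had a median overall mean of 6.99 and differences from −0.50 to 0.07. In introns, which held 80 of the peaks, the median overall mean was 3.39, and 15 peaks were lower and 8 higher. Of the 19 peaks over coding exons 4 were lower and 0 higher, and of the 5 over exon sequence outside the coding part 2 were lower. The shares of all listed peaks in introns, over exons or downstream were not counted, so the counts at these places have no background. In the 5 kb upstream of the start, 0 of 14 peaks were lower and 5 were higher, where 19.3% and 18.3% of all listed peaks so placed at protein-coding genes were. Over the gene bodies 21 of 110 Pax peaks were lower and 8 were higher, where 19.4% and 19.5% of all listed peaks over protein-coding gene bodies were. The 6 downstream peaks held 1 higher and 0 lower. All 21 lower Pax peaks therefore lay over a gene body, but these counts are small, whether the upstream and the gene body peaks differ was not tested, and peaks of 1 gene are not replicates of each other.

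In the Pax1/9 group, *Pax1* is a regulator of the sclerotome that forms the vertebral column. Its start lay in a peak of 2037 bp (chr2:147360659-147362695) with 5.79 in the control and 5.86 in the knockdown, a region that an antisense transcript, AI646519, shares. Its strongest peak, over coding exons at chr2:147364370-147366871, had 6.45 and 6.37. The domain around the start was thus at nearly the same level in both groups. Past 2-fold were a peak upstream, at chr2:147356303-147357025, with 2.01 in the control and 4.52 in the knockdown (5.72-fold higher), and a peak between the start and the coding exons, at chr2:147363197-147363884, with 4.59 and 2.87 (3.30-fold lower). The latter, of 688 bp, lay between peaks that differed by 0.07 and −0.08.

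*Pax9*, which acts in the sclerotome, the teeth and the pharyngeal pouches, carried 9 peaks. The peak over its start was 6604 bp long (chr12:56685799-56692402) and had 7.73 in the control and 7.78 in the knockdown. The next peak, directly beyond it over coding exons at chr12:56692416-56696093, had 6.93 and 6.30. Of the 554 control reads of the gene, 38.2% came from the start peak, so the lower sum in the knockdown came from its other peaks. The 2 peaks past 2-fold, both lower, were in an intron at chr12:56698204-56699094 (4.34 and 2.32, 4.05-fold) and over a coding exon at chr12:56709562-56709908 (3.85 and 1.77, 4.25-fold).

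In the Pax2/5/8 group, *Pax2*, a regulator of kidney, eye and hindbrain development, had nearly equal means in both groups at its start and at its widest peaks. The peak over the start (chr19:44754910-44758333) had 6.59 in both groups, and the widest and strongest peak, over coding exons at chr19:44758759-44763009, had 7.09 in both. A peak at the other end of the gene, at chr19:44833687-44836945, had 6.48 in both. A strong peak upstream, at chr19:44747583-44751223, had 6.84 and 6.81. The other *Pax2* peaks with an overall mean of 5 or more had means further apart. They were one upstream at chr19:44751547-44752783, with 5.47 in the control against 5.00 in the knockdown, one in an intron at chr19:44763131-44764766, with 4.91 and 5.67, and one downstream at chr19:44838341-44840313, with 5.95 and 5.03. The last 2 were the largest differences in each direction among the 27 Pax peaks of that strength. Past 2-fold were intronic peaks at chr19:44811524-44811969 (3.99 and 1.57, 5.37-fold lower) and chr19:44809070-44809367 (2.30 and 3.35, 2.07-fold higher), and a downstream peak at chr19:44842755-44843164 (2.59 and 3.59), which just passed the limit.

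*Pax5*, the factor that commits lymphoid progenitors to the B cell lineage, is the longest gene of the family (185731 bp) and held 30 peaks, of which 7 were lower and 2 higher. No peak lay over its annotated start. The nearest, 263 bp upstream at chr4:44710750-44712663, had 6.46 in the control against 6.10 in the knockdown, and the one before it, at chr4:44712893-44715210, had 6.66 and 6.27. The widest and strongest, 5938 bp over coding exons at chr4:44701194-44707131, had 7.53 and 7.36. All 3 peaks with an overall mean of 5 or more were thus slightly lower in the knockdown.

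The intronic *Pax5* peak whose sequence is given above, at chr4:44694923-44695647, had 4.37 in the control, or 20.7 reads, and was listed at 0 in the knockdown. Another, at chr4:44563360-44563568, had 2.99 and was listed at 0, while the peak at chr4:44566038-44566296 was listed at 0 in the control and had 3.24 in the knockdown. These last peaks are neighbours and differed in opposite directions. No fold is given against a mean listed at 0. With both means above 0, lower peaks lay over coding exons at chr4:44697101-44697715 (4.55 and 3.26, 2.44-fold) and chr4:44679357-44680057 (4.14 and 2.41, 3.31-fold), over exon sequence outside the coding part at chr4:44527886-44528504 (4.09 and 2.70, 2.61-fold), and in introns at chr4:44545728-44546098 (3.76 and 2.06, 3.25-fold) and chr4:44560991-44561649 (3.43 and 2.42, 2.01-fold). The remaining higher peak, at chr4:44699884-44700975, adjoined the strong domain and had 2.79 and 4.41 (3.09-fold).

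*Pax8*, which specifies the follicular cells of the thyroid, had the lowest ratio of knockdown to control in the family, 151 reads against 190. The peak over its start (chr2:24473218-24475643), which carried 47.5% of the control reads of the gene, had 6.49 in the control and 5.99 in the knockdown, the widest gap among the 6 start peaks. Past it, the intronic peak at chr2:24471174-24471830 shown above had 4.66 and 0.38, or 25.2 reads against 1.31, which is close to the lower limit of the table, so no fold is given. Its neighbour at chr2:24470617-24470937 had 3.38 and was listed at 0, and an intronic peak at chr2:24458407-24459077 had 4.09 and 3.06 (2.05-fold lower). The higher peaks lay 390 bp upstream of the start, at chr2:24475989-24476578 (2.30 and 4.26, 3.90-fold), and in an intron at chr2:24468503-24468750 (1.05 and 2.35, 2.48-fold). The peak directly beyond the start peak, at chr2:24471923-24473124, had 3.92 and 4.76, a difference below 2-fold. The peaks that adjoin the start peak on each side were thus higher in the knockdown and the next 2 further in were lower. In addition, 2 of the 10 *Pax8* peaks overlapped an exon of another annotated gene, Gm13415. Exons of other annotated genes also lay under peaks of *Pax2* (1700039E22Rik), *Pax5* (Gm12462 and 5730488B01Rik) and *Pax9* (Gm15524), and the mark there cannot be assigned to one gene.

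Over the 130 Pax peaks, 3 knockdown means (*Pax5* and *Pax8*) and 1 control mean (*Pax5*) were listed at 0. Over all listed peaks these shares were 3.35% and 3.28%.

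In the Pax3/7 group, *Pax3*, a regulator of the neural crest and of muscle precursors, had the most peaks of the family, 34, of which 5 were lower and 4 higher. The peak over the start, of 5818 bp (chr1:78196349-78202166), had 7.39 in the control and 7.41 in the knockdown. A peak over coding exons at chr1:78191851-78194217 had 6.45 and 5.67, and a wide intronic peak at chr1:78140313-78143449 had 5.78 and 6.20, so that the strong peaks of the gene body differed both ways while the start did not. The lower peaks included the strongest peak of any Pax gene past 2-fold on the control scale, at chr1:78176548-78177920 (5.29 and 4.22, 2.10-fold).

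The other lower *Pax3* peaks were in introns at chr1:78172682-78173455 (4.61 and 1.87, 6.67-fold) and chr1:78146541-78147020 (3.88 and 2.79, 2.12-fold), over exon sequence outside the coding part at chr1:78184982-78185895 (4.69 and 2.29, 5.30-fold) and over a coding exon at chr1:78122498-78123075 (3.49 and 1.74, 3.35-fold). All 4 higher peaks were narrow and intronic, 263 to 467 bp long. They stood at chr1:78186187-78186607 (0.34 and 3.39, 8.30-fold), chr1:78113678-78114051 (0.54 and 3.06, 5.73-fold), chr1:78118896-78119362 (2.30 and 4.17, 3.65-fold) and chr1:78146044-78146306 (1.87 and 3.12, 2.39-fold). At the first pair the control means came to 1.26 and 1.45 reads, so their folds rest on almost no control signal.

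*Pax7*, which maintains the satellite cells of muscle, held the widest and strongest Pax peak. It covered 7279 bp over the start (chr4:139827000-139834278), had 7.96 against 7.94 in the knockdown, and made up 41.5% of the control reads of the gene. The peaks that followed it into the gene, at chr4:139823692-139826734 and chr4:139820530-139823527, had 6.72 and 6.15, and 6.62 and 6.16. The start of *Pax7* was therefore level between the groups while the adjoining peaks within the gene had lower means in the knockdown, the same arrangement as at *Pax9*. The adjoining peak upstream, at chr4:139834614-139835606, had 4.75 and 4.72. Among all listed peaks with an overall mean of 5 or more, the 5th and 25th percentiles of the difference were −0.87 and −0.40. The gene-side differences at both genes lay between these values. None of its 16 peaks was lower by more than 2-fold, and 2 upstream peaks with little signal in the control were higher, at chr4:139838504-139838786 (1.00 and 3.87, 7.33-fold) and chr4:139837891-139838270 (2.28 and 3.46, 2.28-fold).

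**Figure D4:**
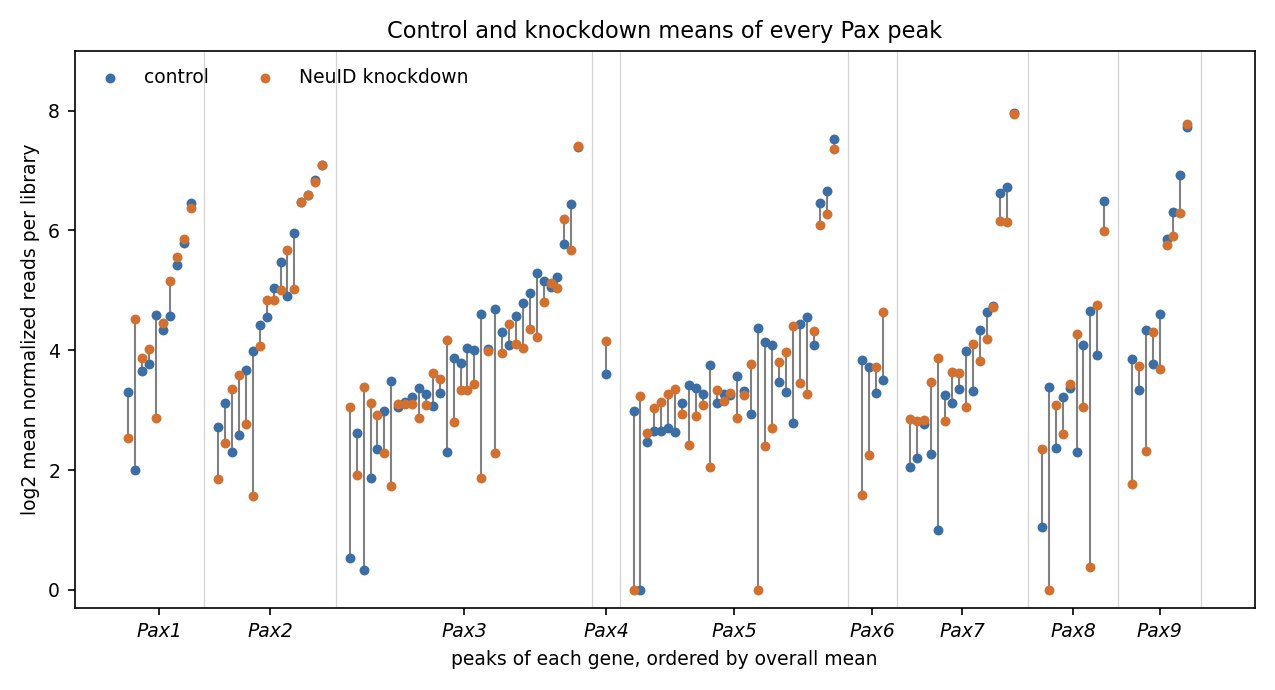
Authors' log2 mean of normalized reads (y axis) in the control (blue) and the NeuID knockdown (orange) for each of the 130 Pax peaks, ordered within each gene by the overall mean (x axis), with a line joining both means of a peak. The 27 peaks with an overall mean of 5 or more have differences from −0.92 to 0.76, and the longest joining lines are among the weaker peaks.

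In the Pax4/6 group, the arrangement was different. *Pax4*, a factor of the insulin-producing cells of the pancreas, had 1 peak, 713 bp long and 1958 bp upstream of its start (chr6:28451311-28452023), with 3.61 in the control and 4.15 in the knockdown, or 12.2 and 17.8 reads. None of the 6 annotated *Pax4* transcripts began in a peak, and the difference was below 2-fold.

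*Pax6* carried 4 peaks, all within 2 kb of the start, and the remaining gene body held none. The start itself lay between peaks, in a gap that closed 204 bp into the gene. On its upstream side the peak at chr2:105667754-105668874, which ended 26 bp before the start, had 3.50 in the control and 4.64 in the knockdown, or 11.3 and 24.9 reads (2.20-fold higher). On the gene side the peak at chr2:105669104-105669590 had 3.84 and 1.58, or 14.3 and 2.98 reads (4.79-fold lower), and the one after it, at chr2:105669724-105670192, had 3.71 and 2.25, or 13.1 and 4.77 reads (2.75-fold lower). The peak farthest upstream, at chr2:105667014-105667636, had 3.29 and 3.72. Upstream peaks were thus higher in the knockdown and peaks within the gene lower, and the sums over the gene, 48.5 and 45.8 reads, did not show this split. All 4 peaks were weak, with overall means from 3.19 to 4.13, and 37.3% of listed peaks with an overall mean of 3 to 4 were past 2-fold. For the higher peak, whose overall mean was 4.13, the background is that of the 4 to 5 class, 20.9% in either direction and 7.62% higher.

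The annotation lists 26 *Pax6* transcripts with 24 distinct starts, and 0 of these starts lay in a peak. At *Pax1*, *Pax2*, *Pax3*, *Pax7* and *Pax9* every annotated transcript began in a peak (3 of 3 at 4 of these genes and 2 of 2 at *Pax7*), at *Pax8* 6 of 8 did and at *Pax5* 5 of 20. *Pax6* and *Pax4* were thus the members with no start in a listed peak. The share of starts in a peak over all genes was not counted here, so this contrast holds within the family only. Whether either gene was transcribed in these cultures was not analysed here.

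Opposite differences in neighbouring peaks were not particular to *Pax6*. Of 62 pairs of adjacent Pax peaks less than 1 kb apart, 30 (48.4%) differed in opposite directions, and of all 4380 such pairs of listed peaks, 46.9% did.

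The base composition of the peaks went along with their level and hardly with the difference between groups. The observed over expected number of CG dinucleotides had a median of 0.281 in the Pax peaks and 0.218 in all listed peaks. At like strength the order varied. In the class from 4 to 5 the medians were 0.262 in the Pax peaks and 0.384 in all peaks. From 5 upward they were 0.469 and 0.534. The Pax median was the higher one from 3 to 4 (0.228 and 0.221) and under 3 (0.220 and 0.185). Across the 130 Pax peaks the observed over expected number had a Spearman's rho of 0.37 with the overall mean (0.32 across all 23642 peaks on chromosomes) and of −0.12 with the difference. By gene, the median ran from 0.132 at *Pax8* to 0.572 at *Pax6*, so the gene with the most CG-rich peaks was among those with the lowest control level per kb. These peaks share their libraries, and width, which varied with strength, enters this comparison as well.

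Pax factors are known to work with Eya and Dach proteins and with homeobox factors of the sine oculis type, and 11 of the 12 genes of that network had a peak, the exception being *Eya3*. Their 56 peaks held 4 lower and 7 higher ones, against 20.6% and 20.4% of all listed peaks, with a median difference of 0.17 and a log2 ratio of summed reads of −0.03. Of the 24 with an overall mean of at least 4, 1 was lower, at *Six2*, a kidney progenitor factor (chr17:85690424-85691734, 5.85 in the control against 3.94 in the knockdown), and 0 were higher, where 9.12% and 5.02% of all peaks of that strength were. A list of 20 genes known to act with or downstream of Pax factors had a peak at 18, with none at *Cd79a* and *Myf5*. Its 108 peaks held 23 lower and 16 higher ones, with a median of −0.21 and a ratio of −0.11, and the shares of 21.3% lower and 14.8% higher stood against 20.6% and 20.4% of all peaks, most of which are weaker.

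Among the 49 peaks of that list with an overall mean of at least 4, 7 were lower and 0 higher, and 9.12% and 5.02% of all listed peaks of that strength were. At *Foxe1*, a thyroid factor that acts with *Pax8*, neighbouring peaks at chr4:46338273-46339407 and chr4:46339495-46340689 had 5.03 and 3.43, and 5.15 and 3.38. *Nkx2-1*, another thyroid and forebrain factor, had one at chr12:56539809-56540816 with 5.08 and 4.06. The difference was larger at *Nkx2-2*, a factor of islet and ventral neural cells, with 4.68 and 2.50 at chr2:147191564-147192276. The others were at *Bmp4*, a secreted growth factor (chr14:46389457-46390399, 5.02 and 3.69), *Msx1*, a tooth and limb factor (chr5:37815079-37816076, 4.48 and 3.35), and *Eomes*, a marker of intermediate progenitors (chr9:118474819-118475527, 4.49 and 3.40). Single peaks do not stand for their genes. Summed over all peaks of each gene named here, the log2 ratio ran from −0.34 at *Nkx2-1* to 0.09 at *Eomes*, which held 2 lower and 2 higher peaks. Across the whole list it ran from −2.11 at *Mitf* to 1.66 at *Neurog2*, each with 2 peaks. For comparison, the 51 Pax peaks that passed the same limit of 4 held 4 lower and 1 higher. This limit takes in both groups, so a peak can pass it through 1 group alone. Of the 7 lower peaks of the list, all but that of *Nkx2-1* had a knockdown mean below 4 and passed through the control mean. So did the *Six2* peak (3.94 in the knockdown). Of the 4 lower Pax peaks, all but that of *Pax3* at chr1:78176548-78177920 (4.22 in the knockdown) likewise passed through the control mean. The 1 higher Pax peak, at *Pax6*, had a control mean of 3.50 and passed through the knockdown mean.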

How the data were processed

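Per the labels and the study's methods, the authors mapped single-end reads of H3K27me3 ChIP libraries to mm10 (GRCm38) using bowtie2; MACS2 gave broad peaks, which DiffBind combined. The deposited values used here are the authors' log2 means of normalized reads per peak over all libraries, over the control and over the NeuID knockdown, with a lower limit of 0. The normalization, duplicate removal and input subtraction were not stated, and depth per library is unknown. The columns of the authors' own comparison (a fold change, a p-value and an FDR) were not used. The overall mean equals the group means weighted as 6 control to 5 knockdown libraries, whereas the labels list 6 and 6.

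Group means were subtracted, and their linear values were summed over the peaks of each gene. Peaks were placed on GENCODE M21, and windows of 300 bases were read from GRCm38.p6. Named were the peaks over gene starts, the widest and strongest of each gene, and those past 2-fold or listed at 0; other values were added after they had been seen. The members, lists and limits were chosen with earlier results of these data known. The alternatives were other fold limits, windows, strength and width filters, centring, added reads and other summaries. The code for overlaps and gene sums was tested by adding known shifts to the deposited control means in the windows of randomly chosen genes. Python 3.11.15, numpy 2.4.6, pandas 2.3.3 and matplotlib 3.10.9 were used.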

Additional observations from a re-analysis of the deposited data

How the results depend on the processing

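Of the values recomputed under the alternatives, 99 moved by less than 0.25 on the log2 scale, or by at most 1.5 times for a count, and 19 moved by more. The count of lower Pax peaks, 21, became 38 at a 1.5-fold limit and 14 at a 3-fold limit, the latter just within 1.5 times. It became 13 when peaks were assigned to the nearest gene start, 4 with an overall mean of at least 4, 13 with peaks of at least 500 bp and 13 with 5 reads added to both means. The count of higher peaks, 14, became 23 at a 1.5-fold limit, 8 at a 3-fold limit, 8 in the gene body alone, 1 with an overall mean of at least 4, 4 with peaks of at least 500 bp and 8 with 5 reads added. The log2 ratio of *Pax6* became −1.82 in the gene body alone, 0.21 by the nearest gene start, 1.14 with an overall mean of at least 4, 0.85 with peaks of at least 500 bp, −0.51 as the median of its peaks and 0.32 without its peak with the most reads, so it has no stable direction. By the nearest gene start the ratio of *Pax1* became 0.45 and that of *Pax9* 0.034. The sign of *Pax1* (overall mean of at least 4, −0.01), *Pax2* (gene body alone, 0.0037) and *Pax7* (median of its peaks, 0.02) also turned under 1 alternative each, by values near 0. The causes were not tested beyond the fewer peaks each filter leaves. The sign held for *Pax3*, *Pax5* and *Pax8* under 10 alternatives each, some of which left the value of *Pax3* or *Pax8* unchanged. For *Pax4*, 7 alternatives gave a value, and the other 3 gave none, with 1 upstream peak and an overall mean below 4. Those 7 all read the same peak (0.54, or 0.59 after centring), so they do not check its sign.

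No paired analysis was possible because the deposited values are means over the libraries of a group, and for the same reason no result was recomputed without one library. Depth per library is unknown, and the calls past 2-fold came mostly from weak peaks, as the counts of 4 lower and 1 higher with an overall mean of at least 4 show.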
